A study of Homo sapiens with 8 samples.

Results

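MIR23A and MIR23B, the genes of the paralogous microRNAs miR-23a and miR-23b, were followed in K562 cells during erythroid induction. They were chosen by gene symbol and account for 2 of the 67 named features on the array, and of 207 features in all. Each is held as 3 consecutive spots, in rows 346 to 348 for MIR23A and 349 to 351 for MIR23B. K562 is a human leukaemia line of multipotential blood blasts with the capacity for erythroid differentiation. The day 0 cells were not stimulated, while cells of days 2, 4, 6, 8, 10 and 22 had been exposed to 50 ng/ml interleukin 3 and 7.5 U/ml erythropoietin in the serum-free medium StemLineII. All cells derived from the same line, and the labels name no engineered allele. Each time point was hybridized to 1 array with Cy3-labelled small RNA. There were no replicates, and separate cultures are not stated. In all 621 rows the day 15 column was the average of days 10 and 22 to within 0.01 units, so it was left out and 7 arrays were used.

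MicroRNAs pair with messenger RNAs mainly through their seed, bases 2 to 8 from the 5′ end, and lower the output of the targets. MiR-23a and miR-23b are made from separate clusters, MIR23A with MIR27A and MIR24-2, and MIR23B with MIR27B and MIR24-1. Both are known to be repressed by MYC and to target glutaminase, and the MIR23A cluster is known for its part in the choice between myeloid and lymphoid fates in blood. In RefSeq (GRCh38.p14), the MIR23A hairpin lies at chr19:13836587-13836659 on the minus strand and overlaps the long noncoding RNA gene MIR23AHG. The MIR23B hairpin lies at chr9:95085208-95085304 on the plus strand and overlaps AOPEP, a protein-coding gene for an aminopeptidase. These coordinates belong to the RefSeq sequences. No build is named for the arrays.

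The mature arms are shown because the paralogs can hardly be separated by sequence on the 3p side, which bears on how their signals compare. Sequences are from RefSeq, written 5′ to 3′, and capitals mark the seed.
hsa-miR-23a-3p: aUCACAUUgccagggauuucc
hsa-miR-23b-3p: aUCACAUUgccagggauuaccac
hsa-miR-23a-5p: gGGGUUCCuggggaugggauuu
hsa-miR-23b-5p: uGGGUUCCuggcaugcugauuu
The 3p arms share their seed. Over the 21 bases of miR-23a-3p, 20 were identical in miR-23b-3p. The only substitution was U19A, counted from the 5′ end with miR-23a-3p first, and miR-23b-3p had 2 further bases at its 3′ end. The 5p arms also share their seed but were identical at only 15 of 22 bases.

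The hairpins are shown because they differ more than the 3p arms do. Capitals mark the 5p arm and then the 3p arm.
MIR23A hairpin: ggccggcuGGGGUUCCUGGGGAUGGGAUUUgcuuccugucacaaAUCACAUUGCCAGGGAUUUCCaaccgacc
MIR23B hairpin: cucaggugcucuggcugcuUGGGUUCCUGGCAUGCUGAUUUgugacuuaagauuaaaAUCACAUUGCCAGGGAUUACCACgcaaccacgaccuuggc
In a global alignment, 62 of 71 aligned bases were identical, and the MIR23B hairpin, at 97 bases, was longer than the 73 bases of MIR23A. The array's symbols name the gene and not the arm, and the probe sequences were not used here. How far each probe binds RNA of the other paralog was not tested.

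Of the 3 genes with this 3p seed in RefSeq, MIR23A, MIR23B and MIR23C, the first 2 were named on the array. Of the 5 microRNAs that share a cluster with either member (MIR27A, MIR24-2, MIR27B, MIR24-1 and MIR3074), 0 were among the named features. The same held for the 5 listed red cell microRNA genes, among them MIR451A and MIR144, so the erythroid identity of the cells was not checked with these data. Bulk RNA was measured, so fewer cells of a type and less RNA per cell cannot be told apart.

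The deposited values are linear Cy3 intensities centred on each array's mean. The true zero and the scale between arrays are unknown. Signal is therefore given above the dimmest spot of the same array. The array's range shrank over the course: from dimmest to brightest spot it spanned 15443 units on day 0 and 554 on day 22, and the median spot was 46.0 to 312 units above the floor. Units of different arrays thus have no common scale.

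MIR23A measured 183 ± 67.0 units above the dimmest spot on day 0 (SD, n = 3 spots). Days 2, 4 and 6 gave 118 ± 45.9, 252 ± 48.7 and 126 ± 12.5. On days 8, 10 and 22 it measured 167 ± 8.50, 112 ± 19.9 and 19.0 ± 18.5. MIR23A lay above the median spot of its array on days 0, 8 and 10 and below it on the other 4. Only 4 of its 21 spots exceeded the array mean, all 3 on day 8 and 1 on day 10.

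The signal of MIR23B was 184 ± 59.1, 100.0 ± 46.7, 278 ± 38.7 and 120.0 ± 15.1 units on days 0, 2, 4 and 6 (SD, n = 3 spots). On days 8, 10 and 22 it measured 97.3 ± 3.21, 74.3 ± 8.74 and 33.0 ± 3.61. MIR23B also lay above the median spot on days 0, 8 and 10 and below it on the other 4. Of its 21 spots, 0 exceeded the mean of their array. This SD reflects the printing and reading of an array, and leaves out the variation of cultures and arrays.

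**Figure D1:**
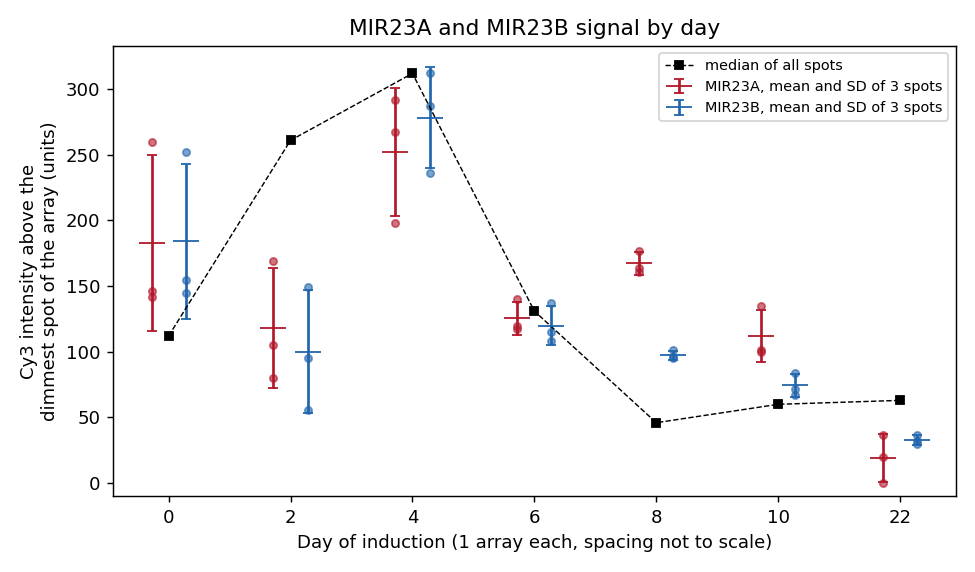
Cy3 intensity above the dimmest spot of the array (units) for MIR23A and MIR23B on each day, with single spots as points, the mean and SD of 3 spots as bars, and the median of all 621 spots as squares. Both genes lie above the median on days 0, 8 and 10, and their spots separate on days 8 and 10.

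The position among the 207 features of an array needs no scale or zero. Counted from the brightest, MIR23A ranked 51, 188, 127 and 107 on days 0, 2, 4 and 6. Its ranks on days 8, 10 and 22 were 29, 46 and 203. MIR23B ranked 48, 200, 118 and 114 on days 0, 2, 4 and 6, and 49, 85 and 193 on days 8, 10 and 22. Both stood in the upper part of the array on days 0 and 8 and near its floor on days 2 and 22. On days 4 and 6 both were nearer to the middle, and on day 10 MIR23A was in the upper part and MIR23B closer to the middle. Probes differ in affinity, so a rank is not an abundance.

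Within an array, the difference between the paralogs does not depend on the unknown zero. On day 0 MIR23A minus MIR23B was -1.33 ± 10.7 units (SD of 3 spot differences). Days 2, 4 and 6 gave 18.0 ± 7.21, -26.0 ± 27.1 and 5.67 ± 3.06. MIR23A was the higher in all 3 spots on days 2 and 6, by 10 to 24 and by 3 to 9 units, but the spot ranges of the genes overlapped on each of these 4 arrays.

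On day 8 the genes stood apart, with MIR23A higher by 70.0 ± 5.29 units, and on day 10 it was higher by 37.7 ± 11.7 units (SD of 3 spot differences). MIR23A was again the higher in all 3 spots, and on these days the spot ranges did not overlap: on day 8 MIR23A spanned 161 to 177 units and MIR23B 95.0 to 101, and on day 10 they spanned 100.0 to 135 and 67.0 to 84.0. On day 22 the difference was -14.0 ± 17.7 units, the ranges overlapped, and both genes were near the floor. On the normalized log2 scale MIR23A minus MIR23B was 0.44 on day 8 and 0.48 on day 10, against -0.13 to 0.09 on the other 5 arrays. The value of day 22, taken near the floor, depended on the background: it was -0.13 here, -0.29 with a normexp offset of 16, and -0.37 without normexp and with the dimmest spot set to 50, where days 8 and 10 gave 0.40 and 0.41. These differences are between single arrays and have no replicate check.

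**Figure D2:**
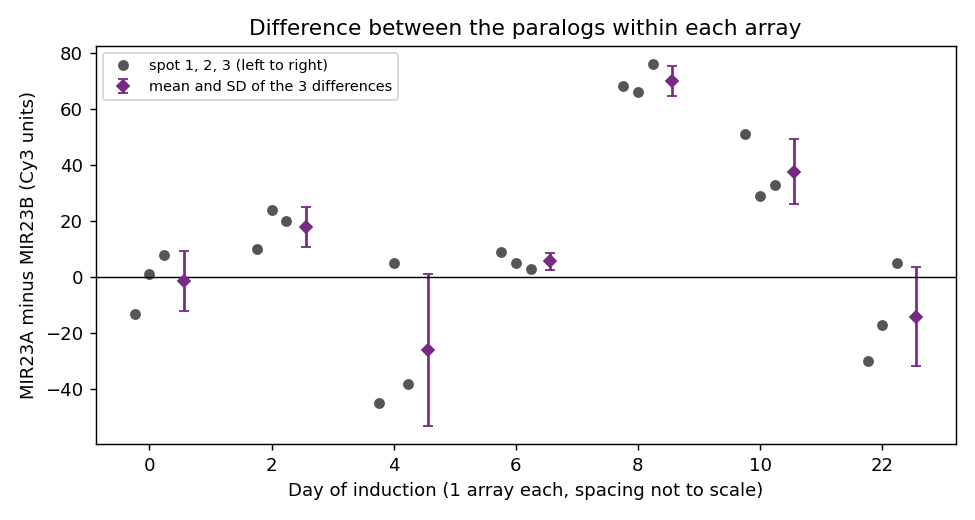
MIR23A minus MIR23B within each array (Cy3 units) by day, for spots 1, 2 and 3 as points and for their mean and SD as a diamond with bars. The differences are 66.0 to 76.0 units on day 8 and 29.0 to 51.0 on day 10, and they scatter around 0 on days 0, 4 and 22.

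Spot 3 lay on the same side of spot 1 in both genes, while the full order of the spots could differ. On day 22, spots 1, 2 and 3 were at 0, 20 and 37 units for MIR23A and 30, 37 and 32 for MIR23B. On day 0 spot 3 was the brightest, at 260 units for MIR23A and 252 for MIR23B against 142 and 155 in spot 1. On day 4 it was the dimmest, at 198 and 236 units against 267 and 312. Spot 3 minus spot 1 was 118, 64.0, -69.0 and 23.0 units in MIR23A on days 0, 2, 4 and 6, and 97.0, 54.0, -76.0 and 29.0 in MIR23B. On days 8, 10 and 22 it was 13, -35.0 and 37.0 in MIR23A and 5.0, -17.0 and 2.0 in MIR23B. The sign was the same in both genes on each of the 7 arrays. Over the 30 features of highest mean level, spot 3 exceeded spot 1 in 23 to 29 on days 0 to 6 and in 7 to 11 on days 8 to 22. The members went against most of these features on day 4, where 26 of the 30 had a brighter spot 3, and on days 8 and 22, where 7 and 11 did. The labels name no batch for this split of the arrays. The difference between the paralogs on days 8 and 10 falls on its later side, and the part of the split in that result was not tested.

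For the tests, background was handled with normexp and an offset of 50, and the log2 values were quantile normalized, so that all arrays share 1 distribution. On this log2 scale MIR23A stood at 7.64, 6.25, 6.81 and 7.04 on days 0, 2, 4 and 6, then 8.18, 7.75 and 6.00. The MIR23B levels of the same days were 7.66, 6.16, 6.93 and 7.0, then 7.74, 7.27 and 6.13. Both were lower on day 2 than on day 0, highest on day 8 and lowest on day 22. Days 2 and 22 were below day 0 for both genes under all 4 scalings, but their signal was too near the floor of the array to give the size of the difference. On day 8 the log2 difference from day 0 was 0.54 for MIR23A and 0.08 for MIR23B. For MIR23A it was 0.67 with median centring and 0.61 with 75th percentile scaling. With no normalization it was only 0.09, and day 4 of MIR23A then stood 0.08 above day 0. Day 22 was the lowest after quantile normalization and with no normalization, and day 2 with median centring and 75th percentile scaling. Day 8 of MIR23B was below day 0 (-0.51) with no normalization, where day 4 was its highest array.

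Ordered by log2 level, the days ran 8, 10, 0, 6, 4, 2 and 22 for MIR23A. Neighbours overlapped in their spot ranges between days 10 and 0, 6 and 4, 4 and 2, and 2 and 22, and were separate between days 8 and 10 and between days 0 and 6. For MIR23B the order was 8, 0, 10, 6, 4, 2 and 22. There the neighbours overlapped between days 8 and 0, 6 and 4, and 2 and 22, and were separate between days 0 and 10, 10 and 6, and 4 and 2.

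MicroRNAs of tissues foreign to these cultures were used as a guide to the signal without expression. That they are not expressed here was not tested, and probes differ in affinity, so the comparison is a description. Of the 23 listed, 6 were named on the array: MIR429 of epithelia, MIR375 of pancreatic islets, and MIR367, MIR371A, MIR372 and MIR373 of embryonic cells. The means of both MIR23A and MIR23B exceeded all 6 on days 0, 8 and 10. On day 0 single spots did not all do so, as the highest marker, MIR373, stood at 7.44. Spots 1 and 2 of MIR23A were at 7.40 and 7.43, and spot 2 of MIR23B was at 7.42. On day 8 the 6 spanned log2 levels of 6.19 to 7.08, below the 8.18 of MIR23A and the 7.74 of MIR23B. On day 6 each member exceeded 5 of the 6, and on day 4 MIR23A exceeded 5 and MIR23B 6. On day 22 both lay below all 6. On day 2 both did so too, MIR23A at 6.25 beside 6.26 for the lowest of them, so neither stood out from these markers on those arrays. Over the 7 arrays the mean level was 7.10 for MIR23A and 6.99 for MIR23B, under the 7.11 of the highest marker.

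**Figure D3:**
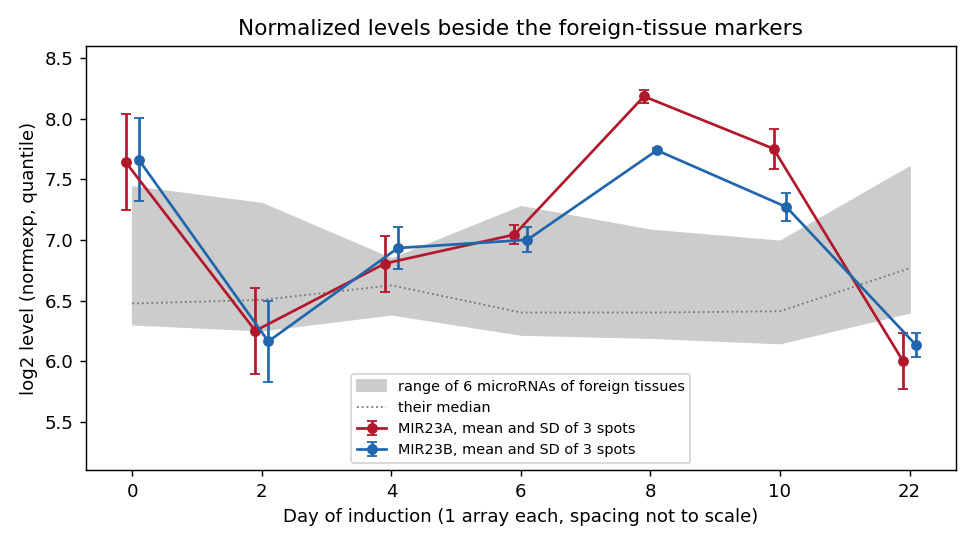
Log2 levels after normexp and quantile normalization by day, as the mean and SD of 3 spots for MIR23A and MIR23B, beside the range (band) and median (dotted line) of 6 microRNAs of foreign tissues. The means of both genes are above the band on days 0, 8 and 10 and below it on days 2 and 22.

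Neither gene had a trend over the course that passed the test. In limma, with the sampling order as the time scale, the fitted log2 change between day 0 and day 22 was -0.33 ± 0.83 for MIR23A (SE, n = 7 arrays, adjusted p = 0.909 after Benjamini-Hochberg adjustment). For MIR23B it was -0.49 ± 0.66 (limma, adjusted p = 0.809). Of the 2 members, 0 passed, where 1 of all 207 features did (0.483%), and 0 had an unadjusted p under 0.05 in limma, where 22 of 207 did (10.6%). The sign of both values depended on the scaling: with no normalization between arrays they were -1.09 and -1.29, with median centring 0.40 and 0.20, and with 75th percentile scaling 0.61 and 0.41. The median feature itself moved, at 0.03 in the quantile fit and -1.24, 0.24 and 0.46 in the other 3. Relative to these medians MIR23A was lower in the quantile fit and higher in the other 3, and MIR23B was lower in all 4. Without the day 22 array the slopes, still scaled to all 7 steps, gave 1.41 and 0.63. Without the day 0 array they gave 0.12 and 0.02. None of these passed.

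With a term for the split at day 8, the slope scaled to 7 steps was -2.98 ± 1.22 for MIR23A and -2.27 ± 1.10 for MIR23B (SE, limma adjusted p = 0.584 for both). The step at the split is not part of these values. In that limma fit 0 of the 207 features passed (0%). An unadjusted p under 0.05 was reached by MIR23A (0.0411) but not by MIR23B (0.0736), and by 16 of 207 features (7.73%). Days 8 to 22 minus days 0 to 6 gave a log2 difference of 0.38 ± 0.52 for MIR23A (SE, 3 against 4 arrays, limma adjusted p = 0.774) and 0.11 ± 0.44 for MIR23B (limma adjusted p = 0.926). Here again 0 of the 2 passed, where 1 of 207 features did (0.483%), and 0 had an unadjusted p under 0.05 in limma, where 19 of 207 did (9.18%). With median centring the values were 0.76 and 0.45, with 75th percentile scaling 0.90 and 0.59, and with no normalization -0.36 and -0.67. The median feature was at 0.02 in the quantile fit and at 0.22, 0.36 and -0.90 in these 3, and both members were above it in all 4.

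**Figure D4:**
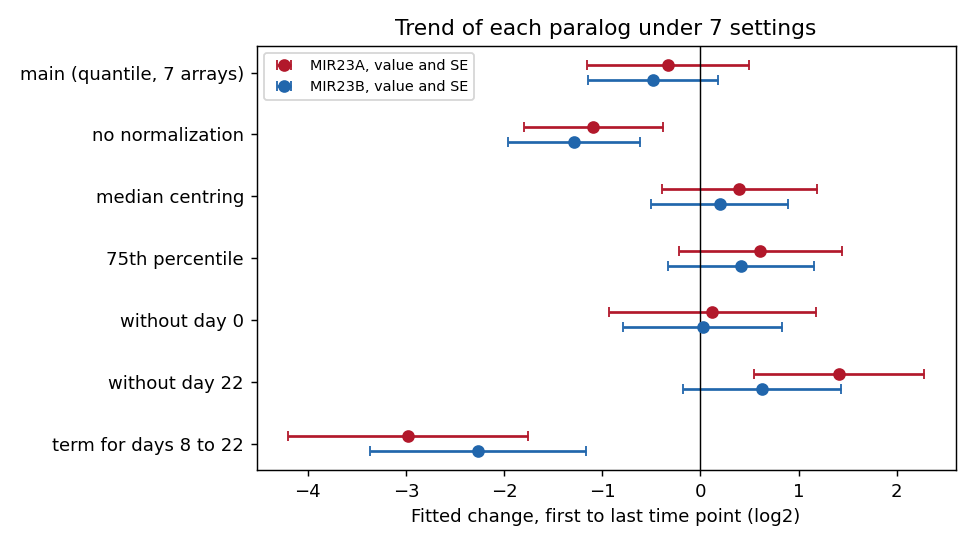
Fitted log2 slope for MIR23A and MIR23B under 7 settings of the limma fit, with its SE. It is scaled to the 7 steps from day 0 to day 22, also where an end array is left out. With the term for days 8 to 22, the step at the split is not part of the value. The values lie on either side of 0, from -2.98 with a term for days 8 to 22 to 1.41 without day 22, both for MIR23A.

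A rise and fall within the course was tested by the second-order term, given as the fitted log2 level midway minus the mean of both ends. It was 0.82 ± 0.61 for MIR23A (SE, limma adjusted p = 0.519) and 0.50 ± 0.51 for MIR23B (limma adjusted p = 0.640, Benjamini-Hochberg). Of the 2 members 0 passed, where 6 of the 207 features did (2.9%), and 0 had an unadjusted p under 0.05 in limma, where 37 of 207 did (17.9%). Neither a line nor a single arch describes levels that were high on day 0, low on day 2 and high again on day 8. Where the first or last array was left out, the term was still scaled to 7 steps, beyond the span of the arrays fitted. Without the day 0 array, MIR23A had a value of 2.32 ± 0.41 and MIR23B one of 1.80 ± 0.32 (SE, limma adjusted p = 0.00279 for both), and both passed. In that fit 48 of 207 features passed (23.2%). Without the day 22 array the values were -1.66 and -1.17 and did not pass, so the shape rests on the first and the last array.

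Whether the paralogs parted steadily was tested on MIR23B minus MIR23A over the sampling order. Pearson's r was -0.21 (exact two-sided permutation p = 0.632 over all orderings of the 7 arrays) and Spearman's rho was -0.07 (exact permutation p = 0.906). Without days 0 and 22, the arrays farthest from the middle of the order, r was -0.81 over 5 arrays. Without day 22 alone it was -0.79 (exact permutation p = 0.0722, n = 6 arrays). This was the only relation of this kind that was tested.

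The courses of MIR23A and MIR23B were closely alike over the 7 arrays, with Pearson's r of 0.96 and Spearman's rho of 0.96 between their log2 levels. This is a description. The points share arrays, normalization and neighbouring rows of the table, and the 3p arms are nearly identical in sequence. Among the 206 other features MIR23A was the closest to MIR23B, and MIR23B was the second closest to MIR23A after quantile normalization. With no normalization, median centring or 75th percentile scaling, 0 features were closer to MIR23A than MIR23B was. Without day 22, 4 other features were closer to MIR23A than MIR23B was, without day 4 there were 3, and without day 0 there were 2. The median r with the other features was -0.20 for MIR23A and -0.19 for MIR23B. Over the 206 pairs of features on adjacent rows the median r was 0.42, against -0.01 over all 21321 pairs. An r at least as high as that of MIR23A and MIR23B was found in 4 adjacent pairs, with this pair counted among them. Of all pairs, again with this pair counted, 0.188% had such an r. The r was 0.92 without normalization between arrays and 0.94 without day 22.

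After its paralog, the named features most like MIR23A were MIR22 (r = 0.86), MIR10A (0.84), MIR21 (0.77) and MIR93 (0.77). Those most like MIR23B were MIR93 (r = 0.88), MIR10A (0.77), MIR22 (0.76) and MIR25 (0.75), all over 7 arrays. Counted among all features, named or not, these ranked 14, 16, 20 and 21 for MIR23A and 6, 17, 20 and 22 for MIR23B. MIR22 is known from red cell precursors, MIR21 is abundant in many tumours, and MIR93 and MIR25 are neighbours in an intron of the replication gene MCM7. MIR10A had a mean log2 level of 6.39, near the 6.37 of the lowest foreign-tissue marker. The r of MIR22 with MIR23A was 0.72 without normalization between arrays and 0.78 without day 22. That of MIR10A with MIR23A was 0.59 and 0.75. That of MIR93 with MIR23B was 0.89 and 0.82.

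MIR23A and MIR23B belong to the microRNAs known to be repressed by MYC. Of 31 others listed as such, 7 were named on the array, and in the limma trend test 0 rose and 0 fell, where 1 of all 207 features passed (0.483%). Their median fitted change was 0.45, with 6 positive and 1 negative, against 0.03 over all 207 features, where 107 were positive and 100 negative. MIR29A, known to repress collagen genes, had a fitted log2 change of 1.77 ± 0.84 and MIR26B one of 1.27 ± 0.76 (SE). MIR15A, a repressor of BCL2, had -1.27 ± 0.48, and MIRLET7G, of a family that represses growth genes, had 0.81 ± 0.56. With no normalization between arrays the list's median was -1.44, with 1 positive and 6 negative, where the median of all features was -1.24. There MIR26B was at -0.93, MIRLET7G at -1.44, MIR29A at 0.41 and MIR15A at -2.69. With median centring and 75th percentile scaling the list's median was 0.04 and 0.26, where that of all features was 0.24 and 0.46, so the list's median lay above that of all features in the quantile fit and below it in the other 3. The lowest adjusted p among the 7 was 0.381, for MIR15A (limma, Benjamini-Hochberg), which alone of the 7 had an unadjusted p under 0.05 (0.0276), where 22 of 207 features did (10.6%). Of the 4 microRNAs listed as megakaryocytic, MIR10A and MIR10B were measured, with a median fitted change of 0.07. Their mean log2 levels were 6.39 and 6.13, beside 6.37 for the lowest foreign-tissue marker. Neither thus stood out from those markers, and a megakaryocytic shift was not tested.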

How the data were processed

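MicroRNA was measured in K562 cells on 1-colour arrays, 1 per time point. The deposited values are linear Cy3 intensity, per the labels, with the mean of each array subtracted, as the values show. Ambion kits served to isolate and label the small RNA, per the labels' protocols. One protocol names CD34 cells where the other labels name K562. Neither scanner nor image software is given in the sources used here. Depth does not apply to arrays, and their number limits the precision.

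A single gene symbol was available for 201 rows of the table, several for 0 and none for 420. All 201 were matched by gene identifier to RefSeq (GRCh38.p14), and the sequences of both members were found there. Background was handled with normexp (offset 50) in limma 3.58.1 (R 4.3.3), followed by log2, quantile normalization and the mean of 3 spots. No filter was applied, so both members were tested. Tests used lmFit and eBayes on the sampling order (7 steps), its second-order term, or days 8 to 22 against days 0 to 6, with Benjamini-Hochberg adjustment over 207 features at a threshold of 0.05. The fit was also run on simulated data with less scatter than these arrays have, so it does not show what the fit could detect here. P-values measure only the scatter between these arrays. The offset shrinks log2 differences of dim features such as these.

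The members, lists and tests were chosen with earlier results of these data known. The named genes were the members, their cluster partners, genes of the same seed, up to 4 members of the MYC list by p, and the 5 named features with the highest r to each member. Plots were made in Python 3.11.15 (matplotlib 3.10.9).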

Additional observations from a re-analysis of the deposited data

How the results depend on the processing

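No paired analysis was possible because each time point had 1 array and the labels give no replicate numbers. The alternatives were other scalings, backgrounds and spot summaries, a filter, array weights, other time scales, a term for days 8 to 22 and leaving out each array. Under a filter at the median level MIR23B was not tested. With values at or below 0 set to a floor, the lowest positive value of each array, MIR23B was at the floor on all 7 arrays. Its fit is not given. In no alternative did either member pass in the trend or in the comparison of days 8 to 22 with days 0 to 6. The trend of MIR23A and MIR23B changed sign with median centring (0.40 and 0.20), with 75th percentile scaling (0.61 and 0.41) and with array weights (1.10 and 0.33), and that of MIR23A with the floor (1.19). That last value had an SE of 2.28, and only 4 of the 21 spots of MIR23A were above 0 before the floor was set. Leaving out 1 array, with the slope still scaled to 7 steps, gave -0.82 to 1.41 and -0.99 to 0.63. The second-order term, also scaled to 7 steps, ranged from -1.66 to 2.32 for MIR23A and from -1.17 to 1.80 for MIR23B without 1 array. Days 8 to 22 minus days 0 to 6 had the opposite sign without normalization (-0.36 and -0.67), where the median feature was at -0.90 and both members stayed above it, and for MIR23B with the third spot only (-0.10). Without 1 array it ranged from -0.0747 to 1.10 and from -0.24 to 0.61. The r of the paralog difference over time reversed with the dimmest spot set to 50 (0.10), with the second spot only (0.0186), on days (0.0335) and with the term for days 8 to 22 (0.62), and ranged from -0.79 to 0.0368 without 1 array. MIR23A minus MIR23B on day 4 was 0.0174 with the second spot only. On days 8 and 10 MIR23A was the higher in all 17 settings, which share the same arrays, but the size moved. The log2 differences of these days were 0.58 and 0.42 with no normalization, and 0.53 and 0.61 with a normexp offset of 16. The count of features passing the trend was 9 without normalization, 2 after median centring, 2 after 75th percentile scaling, 10 on days, 0 on the log2 scale of days, 0 with the floor, 0 with the term and 0 to 4 without 1 array. For the other reversals the cause was not tested. Dim signal limits what can be read on days 2 and 22.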

Other observations

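After quantile normalization, the feature whose course was closest to MIR23A was unnamed in the tables used here and starts at row 418. Its r was 0.964 over 7 arrays, against 0.963 for MIR23B, which was the closest under the other scalings. It was picked out after its values were seen. Its log2 levels were 7.61, 7.02, 6.97 and 7.46 on days 0, 2, 4 and 6, and 8.20, 7.83 and 6.55 on days 8, 10 and 22. It was also highest on day 8 and lowest on day 22. The unnamed features on the rows just before MIR23A and just after MIR23B had r of 0.94 with MIR23A and 0.69 with MIR23B.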
